A study of Mus musculus with 16 samples.

Results

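H3K9me3, a histone mark of repressed chromatin, was examined at 60 genes that mark or build the crypts and the epithelium of the mouse small intestine. The genes comprised 11 stem cell genes, 12 genes of the Wnt pathway, 4 of the Notch pathway, 5 of goblet and other secretory cells, 3 of enteroendocrine cells, 9 of Paneth cells and antimicrobial defence, 3 of tuft cells, 9 of enterocytes, and 4 of BMP and EGF signalling and ion transport. Every H3K9me3 peak whose deposited gene annotation named one of them was taken, whether the peak overlapped the gene or lay within 5 kb of it. This gave 44 of 212313 peaks, at 18 of the 60 genes.

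ChIP-seq had been performed on whole crypt isolates of the small intestine from C57BL/6 males kept in specific opportunistic pathogen free conditions, and the age of the animals is not given in the sources used here. The genotypes were wild type (WT) and Vil-Cre mediated KO of the chromatin remodeling factor Smarcad1 (KO). In the KO, Cre was expressed from a transgene with the Villin promoter, which is active in the intestinal epithelium, and it removed loxP-flanked exons of Smarcad1 in mice of the CE6 line, derived from a single targeted ES cell clone. Whether the WT mice carried the loxP alleles or the transgene is not stated for these libraries. For each mark there were 3 ChIP libraries per genotype, and 1 input library (chromatin sequenced with no antibody step) per genotype. The study calls the H3K9me3 libraries biological replicates, but no label ties a library to an animal, and the p-values measure the spread between these libraries. Crypt isolates hold stem, Paneth, goblet, enteroendocrine, tuft and absorptive progenitor cells together, so a lower value can come from less of the mark per cell or from fewer cells that carry it, and these cannot be told apart. The tables hold no expression values, so the tissue label could not be checked by marker expression, and Smarcad1 itself has no peak in them. Reads in H3K9me3 peaks numbered from 7067495 (KO replicate 1) to 11830785 (KO replicate 2) per ChIP library.

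Trimethylation of histone H3 at lysine 9 marks silenced chromatin. It is bound by HP1 proteins and covers repeats as well as genes that a tissue keeps off. Intestinal stem cells at the crypt base carry the receptor Lgr5 and depend on Wnt signals, which Paneth cells and the stroma supply. Notch signals between neighbouring crypt cells decide between absorptive and secretory fates, the latter giving goblet, Paneth and enteroendocrine cells. Smarcad1 and its homologs are known for roles in keeping heterochromatin in dividing cells.

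The sequences below are the central 150 bases of the 7 peaks that were lower in KO and of the 2 peaks with the highest ChIP over input, shown because the results turn on them. They were read from the plus strand of the GRCm38 genome (RefSeq), and the capitals mark each CG, the dinucleotide that DNA methylation acts on.
Hnf4g peak 2, chr3:3567151-3567300: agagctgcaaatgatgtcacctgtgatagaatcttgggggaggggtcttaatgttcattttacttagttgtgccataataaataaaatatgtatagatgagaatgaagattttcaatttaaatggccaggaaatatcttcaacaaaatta
Lgr5 peak 3, chr10:115545301-115545450: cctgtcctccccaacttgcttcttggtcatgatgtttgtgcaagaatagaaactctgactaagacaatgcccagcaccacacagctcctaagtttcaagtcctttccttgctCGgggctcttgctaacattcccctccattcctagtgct
Prom1 peak 2, chr5:44022376-44022525: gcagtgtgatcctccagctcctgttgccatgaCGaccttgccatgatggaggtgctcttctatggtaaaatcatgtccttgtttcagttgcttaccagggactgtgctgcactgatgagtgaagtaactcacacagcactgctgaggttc
Prom1 peak 3, chr5:44032276-44032425: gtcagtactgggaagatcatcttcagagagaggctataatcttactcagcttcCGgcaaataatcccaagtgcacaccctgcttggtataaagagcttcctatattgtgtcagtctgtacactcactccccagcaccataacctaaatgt
Prom1 peak 5, chr5:44082301-44082450: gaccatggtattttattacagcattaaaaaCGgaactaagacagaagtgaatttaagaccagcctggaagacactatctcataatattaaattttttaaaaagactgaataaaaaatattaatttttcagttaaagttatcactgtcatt
Lyz1 peak 1, chr10:117299176-117299325: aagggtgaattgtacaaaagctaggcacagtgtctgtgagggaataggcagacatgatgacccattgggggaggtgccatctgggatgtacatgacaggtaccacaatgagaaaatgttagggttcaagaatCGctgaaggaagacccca
Mmp7 peak 2, chr9:7704901-7705050: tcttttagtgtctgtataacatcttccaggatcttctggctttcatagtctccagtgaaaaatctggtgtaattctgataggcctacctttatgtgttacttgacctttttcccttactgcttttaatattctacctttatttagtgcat
Znrf3 peak 1, chr11:5361826-5361975: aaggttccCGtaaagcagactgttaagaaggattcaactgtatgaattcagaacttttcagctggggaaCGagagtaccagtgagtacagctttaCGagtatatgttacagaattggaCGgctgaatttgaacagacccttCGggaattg
Znrf3 peak 2, chr11:5362876-5363025: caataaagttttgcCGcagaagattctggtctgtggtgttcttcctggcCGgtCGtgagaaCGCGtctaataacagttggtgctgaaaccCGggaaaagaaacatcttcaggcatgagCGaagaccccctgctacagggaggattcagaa
The Znrf3 windows hold 5 and 7 CGs and are repeat sequence throughout. Of the windows of the lower peaks, 5 hold 1 CG each, and those of Mmp7 and Hnf4g hold 0. The dinucleotide CG, which reads the same on both strands, occurs in 30 of the 44 central windows of member peaks (68.2%) and in 55.6% of the central windows of all peaks. Windows with 5 or more CGs made up 11.4% and 3.25%.

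Where the peaks lie was described first, since H3K9me3 at a promoter and within an intron are different measurements. Of the 44 peaks, 37 overlapped the gene, 31 of them in introns and 6 touching an exon. A further 4 lay before the start of the gene (2 at Axin2, 1 each at Lyz1 and Cftr) and 3 past its end (Bmi1, Tff3 and Mmp7). None touched any of the 62 RefSeq promoters, the sequence just before and after a start site, that were found for 48 of the 60 genes. The nearest peak to a gene start was at Cftr, with its edge 1037 bp before it. At Lgr4 and Cftr a peak overlapped an exon with untranslated sequence. Peaks were 300 to 6000 bp wide with a median of 1200 bp, against 1350 bp over all peaks. Their median GC content was 43.8% (39.6% over all peaks), and repeats, the soft-masked bases of the genome, covered a median of 38.8% (35.2%).

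Most of the genes carried no peak. Without a peak were the stem cell genes Olfm4, Ascl2, Smoc2, Lrig1, Hopx, Tert and Msi1. So were Ephb3, Tcf7, Ctnnb1, Rnf43, Myc and Wnt3 of the Wnt pathway, and all 4 Notch pathway genes (the receptor Notch1, its ligands Dll1 and Dll4, and the target Hes1). In the secretory lineages these were Atoh1, Gfi1, Spdef and Muc2, and the 3 enteroendocrine genes Neurog3, Neurod1 and Chga. Of the Paneth and antimicrobial genes, Lyz2, Defa22, Defa26, Ang4, Itln1, Reg3b and Reg3g had none. Pou2f3 and Trpm5 of tuft cells, Hnf4a, Fabp1, Fabp2, Apoa1, Apoa4, Alpi and Sis of enterocytes, and Bambi and Egfr also had none. Members with a peak had a median length of 105 kb, and those without, 10.1 kb. A peak was found at 12 of the 21 members of 50 kb or longer (57.1%) and at 6 of the 39 shorter ones (15.4%), against 60.9% and 22.4% of all protein-coding genes of these lengths.

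To ask whether loss of Smarcad1 altered the mark at these genes, KO was compared with WT at each peak by limma, fitted and adjusted over all 212313 peaks. Values are log2 reads per peak after the authors matched the distributions of the 6 ChIP libraries, so a difference is relative to all peaks and not an absolute amount of the mark. Of the 44 peaks, 7 were lower in KO (15.9%), at Hnf4g, Lgr5, Prom1 (3 peaks), Lyz1 and Mmp7, and 0 were higher. Over all peaks, 2.46% were lower and 0.252% higher. The lower count fell to 3 without WT replicate 2 and to 4 without WT replicate 3 or KO replicate 2. Over all peaks it fell as well, from 5226 to 3933, 3579 and 4863 in these fits. At an unadjusted p under 0.05, 15 member peaks were lower and 0 higher, against 6.75% and 4.07% of all peaks. The edgeR test on recovered reads called 8 lower and 0 higher (2.74% and 0.271% of all peaks), and DESeq2 called 1 (Hnf4g) and 0 (1.07% and 0.0598%). Without the mean trend in its prior variance, limma called 0 member peaks, and 87 lower and 16 higher over all peaks.

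The difference, KO minus WT, was negative at 36 of the 44 peaks. Its median was -0.37 (quartiles -0.62 and -0.13), and it ranged from -0.92 at Prom1 to 0.25 at Dclk1. Over all peaks the median was 0.03, and over the 77485 peaks with an annotated gene it was 0.01, with 3.92% lower. Peaks with 42 to 46% GC, around the median of the members, had a median of -0.01 and 4.92% were lower. Set against the WT mean one library at a time, the median over member peaks was -0.35 in KO replicate 1, -0.30 in KO replicate 2 and -0.20 in KO replicate 3, while over all peaks it lay between 0.03 and 0.04 in each. Without KO replicate 1 the median difference of the members was -0.27. All 3 KO values lay below all 3 WT values at 11 member peaks, against 8.21% of all peaks, and above them at 1, against 7.3%. Peaks of 1 gene share that gene and are not independent: 11 of the 44 were at Dclk1, and without them the median was -0.49.

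**Figure D1:**
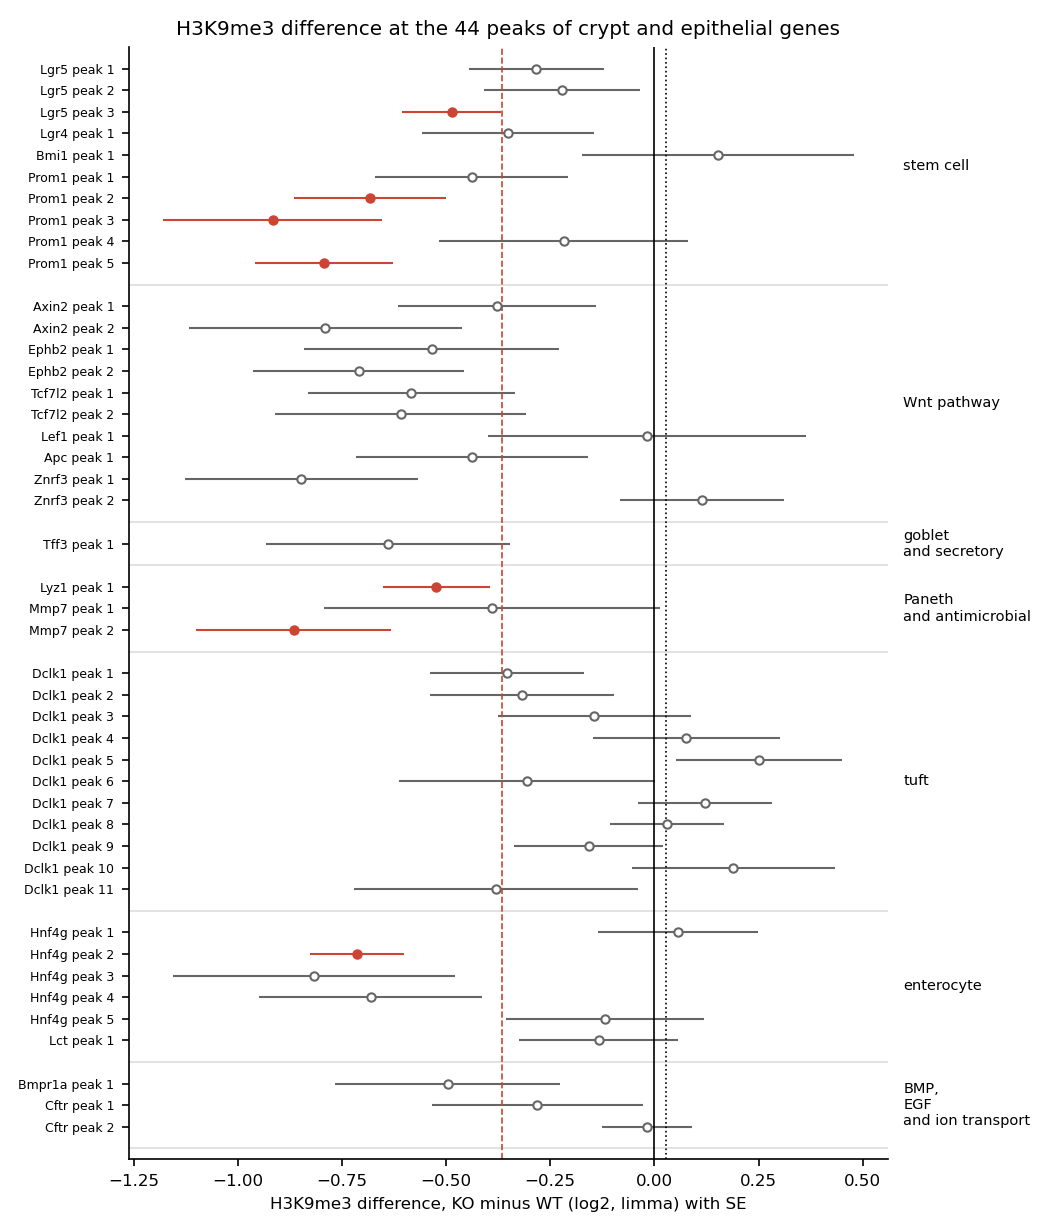
H3K9me3 difference, KO minus WT on the log2 scale, with its SE from limma at each of the 44 member peaks, grouped by gene list; filled red points are the 7 peaks lower in KO (limma adjusted p under 0.05). The dashed red line is the member median of -0.37 and the dotted line the median of all peaks, 0.03; 36 of 44 points lie below 0.

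Counted by gene, the share with a lower peak was near that of all genes. A lower peak was present at 5 of the 60 members (8.33%), and at 7.67% of all 21951 protein-coding genes. Of members with any peak, 27.8% had a lower one, against 24.6% of all such protein-coding genes.

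Among stem cell genes, 4 of 11 had peaks (Lgr5 3, Lgr4 1, Bmi1 1 and Prom1 5), and 4 of these 10 peaks were lower in KO, against 2.46% of all peaks. Of the 4, 3 were at Prom1, so 2 of the 4 genes with a peak had a lower one, against 24.6% of all protein-coding genes with a peak. The list median was -0.39. Lgr5, the R-spondin receptor that marks cycling stem cells at the crypt base, carried 3 intronic peaks. Peak 3 (chr10:115543801-115546950), centred 42.4 kb into the gene, held log2 values of 7.34, 7.15 and 7.07 in WT and 6.61, 6.76 and 6.73 in KO. All KO libraries lay below all WT libraries. The difference was -0.49 (SE 0.12, limma adjusted p = 0.00921), which is 71.4% of the WT level, and the call was lost without WT replicate 1. At the other Lgr5 peaks all KO values also lay below all WT values, but the differences did not pass the test. Peak 1 (chr10:115491001-115492800) held 6.19, 5.83 and 5.95 in WT and 5.72, 5.71 and 5.70 in KO (difference -0.28, SE 0.16). Peak 2 (chr10:115534201-115535850) held 5.50, 5.41 and 5.51 in WT and 5.26, 5.14 and 5.36 in KO (difference -0.22, SE 0.19).

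Prom1 encodes prominin-1 (CD133), a membrane protein of crypt base cells and many other progenitors. It carried 5 peaks along its 108 kb, all with negative differences, and 3 of them were lower in KO; peak 4, not among these, changed sign without KO replicate 3. Peak 5 (chr5:44081551-44083200), the nearest to the gene start at 19.7 kb, held 6.25, 6.16 and 6.18 in WT and 5.20, 5.36 and 5.64 in KO. Its KO level was 57.7% of WT (difference -0.79, SE 0.17, limma adjusted p = 0.00156). Peak 2 (chr5:44021701-44023200) held 5.83, 5.88 and 5.89 in WT and 5.26, 4.87 and 5.43 in KO, a difference of -0.68 (SE 0.18, limma adjusted p = 0.0236). Both peaks had tight WT values and a wider spread in KO, with no overlap. Peak 3 (chr5:44031901-44032800) held 4.65, 4.96 and 5.24 in WT and 4.28, 3.78 and 4.05 in KO, with the most negative difference of any member peak (-0.92, SE 0.26, limma adjusted p = 0.0414). It rests on few reads, 28 to 43 in WT and 14 to 16 in KO, and its KO input was lower as well (15 reads against 23). The call of peak 3 was lost when WT replicate 2 or 3 or KO replicate 2 or 3 was left out, and that of peak 2 when any WT replicate or KO replicate 2 was. With the GC trend of each library removed, peak 2 also lost its call (difference -0.60, limma adjusted p = 0.0595). Peaks 1 and 4 did not pass, with differences of -0.44 (SE 0.23) and -0.22 (SE 0.30), and the groups overlapped at both.

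Lgr4, a relative of Lgr5 with broader expression in the crypt, had 1 peak at an exon that held 5.55, 5.37 and 5.06 in WT and 4.81, 5.02 and 5.09 in KO (difference -0.35, SE 0.21). Bmi1, a Polycomb gene used as a marker of reserve stem cells, had 1 peak of 600 bp past its end, with a difference of 0.15 (SE 0.33). Both groups overlapped at these peaks.

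**Figure D2:**
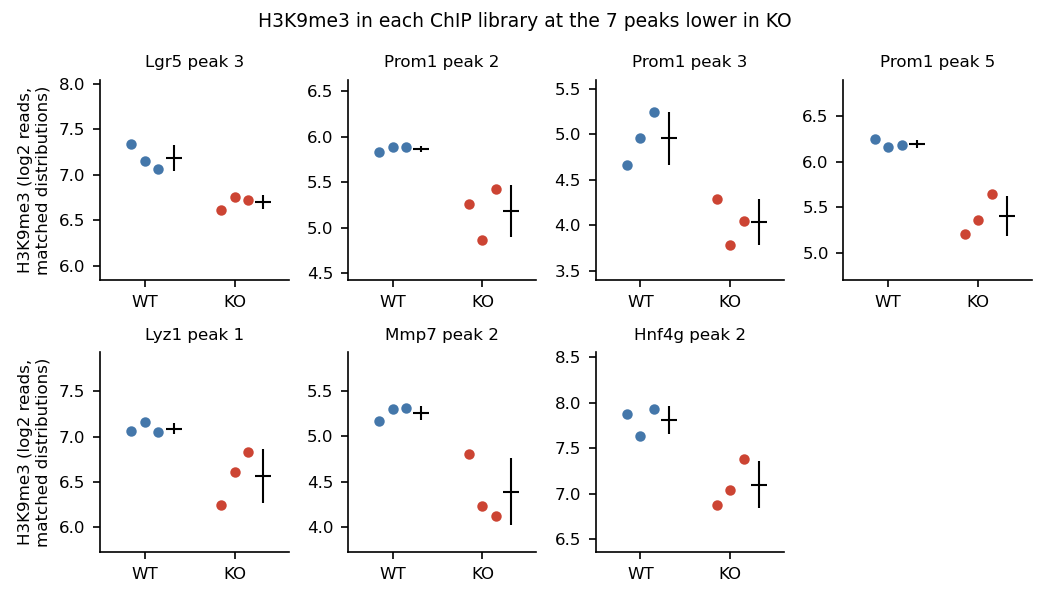
H3K9me3 in each ChIP library at the 7 member peaks lower in KO, as log2 reads per peak with matched distributions; points are the 3 WT (blue) and 3 KO (red) libraries, and the bars give mean and SD. At all 7 peaks the highest KO value lies below the lowest WT value, with the narrowest gap at Lyz1 (6.83 against 7.05) and the y axes span equal ranges.

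In the Wnt pathway list 6 of 12 genes had peaks, 10 in all, and 0 were called by limma in either direction. At an unadjusted p under 0.05, 5 were lower and 0 higher (6.75% and 4.07% of all peaks), and edgeR on recovered reads called 1 lower (Znrf3 peak 1, against 2.74% of all peaks) and DESeq2 0. The median difference was -0.56, the most negative of the lists with more than 1 gene carrying peaks. It was carried unevenly by the libraries, with medians against the WT mean of -1.06 in KO replicate 1, -0.25 in KO replicate 2 and -0.13 in KO replicate 3. KO replicate 1 was also the library with the fewest reads, and the part of depth in this spread was not tested.

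Znrf3 encodes a ubiquitin ligase that removes Wnt receptors and is countered by R-spondin and Lgr5. Its 2 peaks adjoin each other in an intron, 81.9 and 82.9 kb from the gene start, and consist of repeat sequence throughout. Peak 1 (chr11:5361451-5362350) held 4.37, 4.70 and 5.49 in WT and 3.79, 4.10 and 4.13 in KO, with no overlap. It was the peak nearest to the threshold on the outside (difference -0.85, SE 0.28, limma adjusted p = 0.108). Peak 2 (chr11:5362351-5363550) held 4.94, 5.67 and 5.43 in WT and 5.26, 5.48 and 5.64 in KO and the groups overlapped (difference 0.11, SE 0.20).

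Ephb2, a receptor that positions cells along the crypt, came next outside the threshold. Its exonic peak 2 (chr4:136768351-136769400) held 5.21, 5.14 and 4.72 in WT and 3.93, 4.24 and 4.77 in KO (difference -0.71, SE 0.25, limma adjusted p = 0.164), and KO replicate 3 lay within the WT range. Its input held 18 reads in WT and 35 in KO. Axin2, a feedback inhibitor and a common readout of Wnt activity, had 2 peaks before its start, with differences of -0.38 (SE 0.24) and -0.79 (SE 0.33). The latter held 4.89, 4.31 and 3.88 in WT and 3.47, 3.95 and 3.29 in KO, with KO replicate 2 above the lowest WT value. Tcf7l2, the main TCF partner of beta-catenin in the gut, had 2 peaks with differences of -0.58 (SE 0.25) and -0.61 (SE 0.30). At the second, KO replicate 1 stood apart from the other 5 libraries, with 4.85, 4.75 and 4.76 in WT and 3.08, 4.69 and 4.77 in KO. Apc, the scaffold of the complex that degrades beta-catenin, held 5.02, 5.48 and 4.32 in WT and 3.79, 4.54 and 5.18 in KO at its 1 peak (difference -0.44, SE 0.28). Lef1, a TCF family member, had a peak of 300 bp with a difference of -0.02 (SE 0.38). The groups overlapped at Apc and Lef1.

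**Figure D3:**
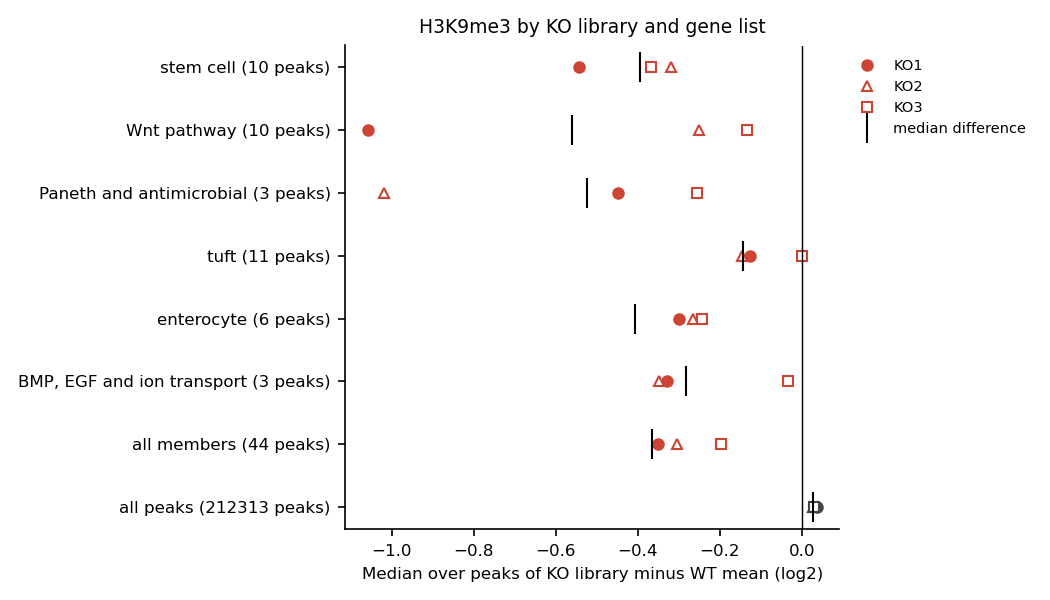
Median over the peaks of each gene list of 1 KO library minus the WT mean, on the log2 scale, for KO replicates 1 (filled circle), 2 (triangle) and 3 (square); the black tick is the median limma difference. KO replicate 1 stands at -1.06 for the Wnt pathway list, while all 3 libraries lie between 0.03 and 0.04 for all peaks.

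Of the Paneth and antimicrobial genes, only Lyz1 and Mmp7 had peaks, 3 in all, and 2 were lower in KO (2.46% of all peaks), 1 at each gene, while 24.6% of all protein-coding genes with a peak had a lower one. Lyz1 encodes the lysozyme of Paneth cells. Its peak (chr10:117297751-117300750) lay 4883 bp before the gene start and held 7.06, 7.15 and 7.05 in WT and 6.25, 6.61 and 6.83 in KO. Its KO level was 69.6% of WT (difference -0.52, SE 0.13, limma adjusted p = 0.0108). The SD was 0.06 in WT and 0.29 in KO, and the call was lost without WT replicate 2 or KO replicate 1. Mmp7 encodes matrilysin, the protease that activates the defensins of mouse Paneth cells. Its peak 2 (chr9:7704301-7705650) lay 4716 bp past the gene end, was 99.4% repeat, and held 5.17, 5.30 and 5.31 in WT and 4.81, 4.24 and 4.13 in KO. Its KO level was 54.9% of WT (difference -0.87, SE 0.23, limma adjusted p = 0.025), and the call was lost without any WT replicate or without KO replicate 2 or 3. Mmp7 peak 1, in an intron, held 4.01, 3.09 and 3.96 in WT and 3.29, 2.55 and 4.05 in KO, and did not pass (difference -0.39, SE 0.40). Itln1, which encodes intelectin-1, had no peak by the deposited annotation, but a peak annotated to the transcript Gm37450 (chr1:171538801-171540300) lay 3507 bp from it. That peak held 6.08, 5.72 and 5.91 in WT and 5.08, 5.39 and 4.87 in KO and was lower in KO (difference -0.79, SE 0.19, limma adjusted p = 0.00645). It is not counted among the 44, and neither are 2 further peaks within 5 kb of a member but annotated to another gene, 1 near Lct (difference -0.42, limma adjusted p = 0.583) and 1 near Ephb2 (difference -0.16, limma adjusted p = 0.933), which did not pass the test.

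Tff3, the trefoil peptide of goblet cells, was the single gene of its list with a peak, at 1206 bp past its end. It held 5.17, 4.23 and 4.66 in WT and 4.48, 4.24 and 3.43 in KO, and did not pass the test (difference -0.64, SE 0.29, limma adjusted p = 0.388). The groups overlapped.

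Dclk1, a kinase gene that marks tuft cells, carried 11 intronic peaks, more than any other member, over 297 kb. Here 0 were lower and 0 higher in limma, 0 at an unadjusted p under 0.05, and 0 by edgeR or DESeq2. Over all peaks, 2.46% were lower and 0.252% higher in limma, and 6.75% and 4.07% at an unadjusted p under 0.05. The shares were 2.74% and 0.271% by edgeR, and 1.07% and 0.0598% by DESeq2. The differences ranged from -0.38 to 0.25 with a median of -0.14. The peak of smallest p (chr3:55324651-55326900) held 5.58, 6.03 and 5.80 in WT and 5.68, 5.66 and 5.01 in KO (difference -0.35, SE 0.19, limma adjusted p = 0.505). Peak 5 (chr3:55401301-55402950) was the one member peak with all KO values above all WT values. It held 5.17, 4.91 and 5.17 in WT and 5.31, 5.20 and 5.49 in KO, and was nearest to the threshold on the higher side (difference 0.25, SE 0.20, limma adjusted p = 0.741). The next on that side, Dclk1 peak 10 (chr3:55449001-55450200), held 4.65, 4.31 and 5.21 in WT and 4.66, 4.87 and 5.21 in KO, and the groups overlapped (difference 0.19, SE 0.24). A difference between the Dclk1 peaks and those of the other members was not tested.

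Of the enterocyte genes, Hnf4g had 5 peaks and Lct 1, and 1 of these 6 was lower in KO, at 1 of 2 genes, against the same 2.46% of peaks and 24.6% of genes with a peak. Hnf4g encodes a nuclear receptor that, with Hnf4a, drives enterocyte genes. Its peak 2 (chr3:3565201-3569250), in an intron 59.2 kb from the gene start, was 4050 bp wide and 76.0% repeat. It held 7.87, 7.63 and 7.93 in WT and 6.87, 7.04 and 7.38 in KO, or 60.9% of the WT level (difference -0.71, SE 0.11, limma adjusted p = 1.97e-05). This peak had the smallest p of the members and was called in 11 of 12 other fits. Of its neighbours, peak 4 (chr3:3572701-3573750) held 4.85, 4.81 and 4.90 in WT and 4.48, 4.48 and 3.55 in KO, without overlap but short of the threshold (difference -0.68, SE 0.27, limma adjusted p = 0.249). Peak 3 held 4.30, 4.52 and 4.32 in WT and 4.48, 3.25 and 2.96 in KO (difference -0.82, SE 0.34), with KO replicate 1 inside the WT range. Peaks 1 and 5 differed by 0.06 (SE 0.19) and -0.12 (SE 0.24). Lct, the lactase gene of absorptive cells, had an exonic peak with 5.63, 5.34 and 5.31 in WT and 5.15, 5.27 and 5.46 in KO (difference -0.13, SE 0.19).

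**Figure D4:**
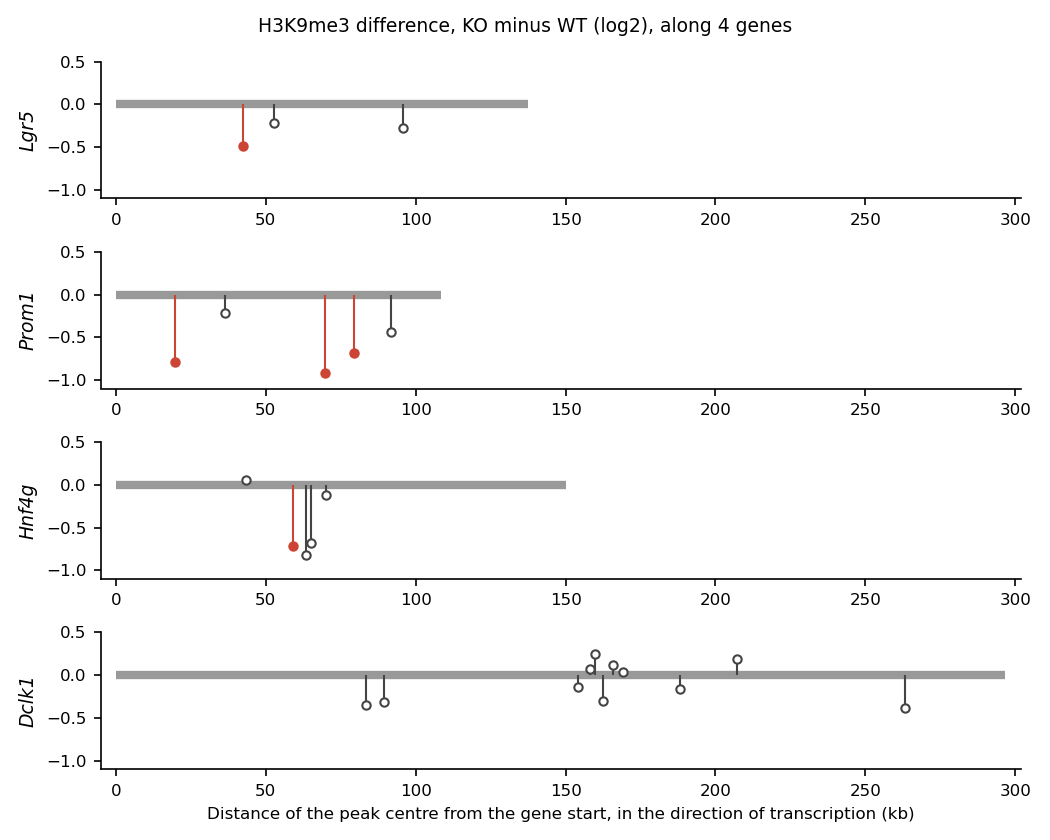
H3K9me3 difference, KO minus WT (log2), at each peak along the 4 members with 3 or more peaks, with the peak centre as distance from the gene start in kb and the grey bar as the gene; filled red points are lower in KO. All 5 peaks of Prom1 and all 3 of Lgr5 lie below 0, while the 11 of Dclk1 lie between -0.38 and 0.25.

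Bmpr1a, a BMP receptor, had 1 intronic peak that held 4.55, 5.01 and 4.66 in WT and 3.79, 4.17 and 4.77 in KO (difference -0.50, SE 0.27), and the groups overlapped. Cftr, the chloride channel of crypt cells, held the widest member peak, 6000 bp over the end of the gene (chr6:18321601-18327600). It held 7.18, 7.44 and 7.47 in WT and 7.40, 7.30 and 7.33 in KO (difference -0.02, SE 0.11), and the groups overlapped. Its ratio of ChIP to input in WT, each scaled to its reads in all peaks, was -0.14 ± 0.16 on the log2 scale (SD, n = 3). Over all peaks the median was -0.06 in WT. With this scaling the value does not show whether the peak lay above or below its input. The other Cftr peak, before the start, differed by -0.28 (SE 0.25).

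ChIP was then set against the input of the same genotype, as reads in the peak divided by all reads in peaks with 1 read added, on the log2 scale. A ratio of 0 thus means equal shares of the ChIP and input reads in peaks, and not a lack of enrichment. The median over the 44 member peaks was 0.21 ± 0.03 in WT and -0.20 ± 0.06 in KO (SD over library medians, n = 3), while over all peaks it was -0.06 ± 0.01 and -0.02 ± 0.02. The ratio was above 0 in WT at 34 member peaks (77.3%, against 41.3% of all peaks), and the KO mean was below the WT mean at 40 of 44, against 47.5% of all peaks. Each genotype had a single input, and the median log2 ratio of KO to WT input over the members was 0.06. When both genotypes were set against the mean of both inputs, the medians were 0.11 in WT and -0.14 in KO. For stem cell genes the medians were 0.41 ± 0.08 in WT and -0.23 ± 0.06 in KO, and for Dclk1 -0.02 ± 0.05 and -0.14 ± 0.02.

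How strongly these peaks were enriched in absolute terms cannot be read from this ratio. The highest ratios in WT were 3.18 ± 0.37 at Znrf3 peak 2, 2.71 ± 0.56 at Znrf3 peak 1 and 1.04 ± 0.16 at Hnf4g peak 2 (SD, n = 3). In KO they were 1.78 ± 0.18, 1.85 ± 0.11 and 0.28 ± 0.26. The Znrf3 ratios rest on few input reads. At peak 1 both inputs held 3 reads, and all KO ChIP levels lay below all WT levels. At peak 2 the inputs held 3 reads in WT and 10 in KO, and the ChIP levels of WT and KO overlapped. The Hnf4g ratios rest on 96 and 94 input reads. Counting intervals were not computed for these ratios.

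**Figure D5:**
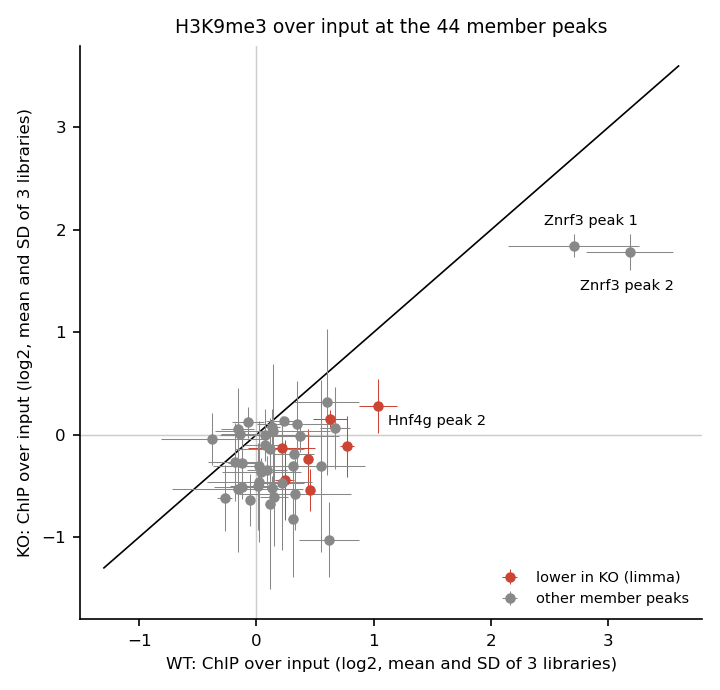
ChIP over input at the 44 member peaks, WT on the x axis and KO on the y axis, on the log2 scale, as mean and SD of 3 libraries against the single input of the genotype; the line marks equal values and red points are the 7 peaks lower in KO. In 40 of the 44 peaks the point lies below the line, and the Znrf3 peaks stand apart at 2.71 and 3.18 in WT.

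H3K9me2, the dimethylated form, was looked up at the same genes. The H3K9me2 table holds regions that group neighbouring peaks, and 16 of its 47065 regions named a member: 7 at Dclk1, 4 at Hnf4g, 2 at Egfr and 1 each at Lgr5, Cftr and Reg3b. Dclk1, Hnf4g, Lgr5 and Cftr thus had entries in both tables, and Egfr and Reg3b in the H3K9me2 table alone. An entry does not by itself show that a gene carries the mark, and ChIP over input cannot decide it. Each library was scaled to its reads in all regions, so a typical region lies near 0 (log2) whether or not it is enriched. The 16 regions had median ratios of 0.02 (WT) and 0.004 (KO), and all regions had 0.001 (WT) and 0.005 (KO). In WT the mean ratio was above 0 at 9 of the 16 (56.2%, against 50.3% of all regions), and it ranged from -0.47 at Egfr to 0.71 at Lgr5, the latter over 9 WT input reads and with 0.25 in KO. At the Cftr region the ratio was below 0 in both genotypes (-0.05 in WT and -0.31 in KO). By edgeR on region reads, 0 of the 16 were lower and 0 higher in KO (smallest edgeR adjusted p = 0.9999), against 0.00212% and 0% of all regions. DESeq2 called 0, and over all regions 3 lower and 0 higher. At an edgeR unadjusted p under 0.05, 1 member region was lower and 0 higher (1.52% and 1.6% of all regions). The differences ranged from -0.18 to 0.15 with a median of -0.03 (all regions, -0.0015). The sign of this median was not stable: it was 0.03 without WT replicate 1 and -0.07 without WT replicate 2.

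The region of smallest p (chr3:55308451-55345500) lay in Dclk1 and held 43.9, 42.7 and 42.2 RPM (reads scaled by the reads in all regions) in WT and 40.2, 39.4 and 36.2 in KO (difference -0.16, SE 0.06, edgeR unadjusted p = 0.0142). A Dclk1 region of 140 kb (chr3:55375501-55515750) grouped 27 H3K9me2 peaks and held 203, 176 and 174 RPM in WT and 187, 173 and 168 in KO (difference -0.08, SE 0.06). All 11 Dclk1 H3K9me3 peaks lay inside these 2 regions. No other member H3K9me3 peak overlapped an H3K9me2 region, so the split of the 44 peaks by H3K9me2 is the split between Dclk1 and the rest. The Lgr5 region (chr10:115526101-115526850) lay apart from its H3K9me3 peaks and held 1.59, 1.15 and 1.35 RPM in WT and 1.13, 1.53 and 1.61 in KO (difference 0.03, SE 0.25).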

How the data were processed

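H3K9me3 and H3K9me2 ChIP-seq of small intestinal crypts was analysed, with 3 WT, 3 KO and 2 input libraries per mark, grouped by sample title. According to the methods of the study and the submitters' processing notes, reads were trimmed with Trim Galore 0.4.4 and mapped to GRCm38 with Bowtie2 2.3.2. In SeqMonk 1.44.0 duplicates were removed, as were reads of low mapping quality, among them reads that fit several copies of a repeat equally well, and MACS peaks were called once per mark from the pooled ChIP and input libraries. A peak therefore says nothing of which library it came from. For H3K9me3 the authors deposited log2 read counts per peak after matching the distributions of the ChIP libraries, a step that removes depth differences and any genome-wide shift. For H3K9me2 the authors deposited a signal per region, the mean read count of its peaks, and mean times number of peaks lay within 0.00114 of a whole number in every region. Shorter tables deposited by the authors held the peaks past their own edgeR test. That of H3K9me3 was not used, and the read counts of the 3 H3K9me2 peaks in the other served only to check the scale of the region sums. The 8 standard-deviation columns deposited with the H3K9me2 regions were left out.

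H3K9me3 was tested on all 212313 peaks with limma 3.58.1, whose eBayes step used a mean trend, and H3K9me2 with the edgeR 4.0.16 quasi-likelihood test (TMM, filterByExpr) on the region sums. Both were two-sided with genotype as the single term and a Benjamini-Hochberg adjusted p under 0.05 over all peaks or regions. H3K9me3 reads were recovered from the ranks of the deposited values, since peaks with equal counts share a value. Matching the recovered reads again returned the deposited values to within 0.01 (log2) for 100% of peaks. All reads of the 44 member peaks were recovered exactly, 6 to 278 per ChIP library. H3K9me2 ChIP libraries held 18986927 to 39080740 reads in regions, and the H3K9me3 inputs 8838386 (WT) and 8452186 (KO). These counts cover counting error only. The functions were tested on simulated data with 200 peaks or regions changed 2-fold. For H3K9me3, limma recovered 54.5% of them with 1 false call, so a peak that was not called may still differ. For H3K9me2, edgeR recovered 97.5% with 8 false calls. GC, repeats and sequences came from the RefSeq GRCm38 genome, gene bodies from GENCODE M21. R 4.3.3, DESeq2 1.42.0 and Python 3.11.15 were used.

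The members and gene lists were chosen with earlier results of these data known. Named were every member peak past the threshold, the peak of smallest p of each member, the 2 peaks just outside the threshold in each direction, the widest peak, the 3 peaks with the highest ChIP over input in WT, every member without a peak, and, of the other lists, each gene with a peak past the threshold; further peaks of the same genes were named after their values were seen. The deviations of same-numbered WT and KO libraries had correlations of -0.0147, 0.00898 and -0.0144 for H3K9me3 and 0.183, 0.0156 and 0.0779 for H3K9me2, and libraries were not treated as pairs, since not every correlation of a mark exceeded 0.1. Alternatives were other tests, filters, thresholds, gene assignments and input scalings, a block for replicate number, and fits that each omitted 1 library.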

Additional observations from a re-analysis of the deposited data

How the results depend on the processing

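The number of H3K9me3 member peaks lower in KO, 7, depended on the test. It was 1 with DESeq2 on recovered reads, 0 with limma without the trend, 3 at an adjusted p under 0.01, and between 3 and 7 in the fits that each omitted 1 library (3 without WT replicate 2, 4 without WT replicate 3 or KO replicate 2). It was 8 with edgeR on recovered reads, 7 among peaks with a mean log2 value of at least 4, 6 with the GC trend of each library removed (chosen after seeing the data; Prom1 peak 2 was lost, at -0.60), 5 over peaks that overlap the gene and 8 with GENCODE genes extended by 5 kb. Over all peaks the lower count also moved, from 5226 to 2262 with DESeq2, 87 without the trend and 3363 at an adjusted p under 0.01. It was 3242 to 4863 with 1 library omitted, 5808 with edgeR, 5353 with the mean filter and 4931 with the GC trend removed. No alternative gave a higher member peak. Over the 12 other fits the 7 lower peaks kept a negative sign, while 11 of the other 37 member peaks changed sign in at least 1 fit, the largest of them Dclk1 peak 6 (-0.31). Of the 12 other fits, calls were lost in 1 for Hnf4g, 2 for Prom1 peak 5, 3 for Lgr5, 4 for Lyz1, 6 for Prom1 peak 3 and 7 each for Prom1 peak 2 and Mmp7. The median difference of -0.37 was from -0.38 to -0.27 when 1 library was left out, and moved beyond the spread between libraries without KO replicate 1 (-0.27). The cause was not tested. Median ChIP over input in WT was 0.15 with 5 reads added, 0.108 over peaks with at least 20 input reads, 0.111 against the mean of both inputs and 0.194 to 0.223 without 1 library. In KO it was -0.137 against the mean of both inputs and -0.229 to -0.178 without 1 library, chosen after seeing the data. The median H3K9me2 difference lay between -0.069 and 0.032 when 1 library was left out, and 0 member regions were called under any alternative.

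By the criterion that every correlation of same-numbered libraries exceed 0.1, the numbers paired the libraries of neither mark, though all 3 were positive for H3K9me2. With the replicate block, 7 H3K9me3 member peaks were lower and 0 higher with a median of -0.37, and 0 H3K9me2 member regions were called with a median of -0.026. Over all H3K9me2 regions the block gave 15 lower and 2 higher, against 1 and 0 without it. Member peaks held 6 to 278 reads per ChIP library, and whether depth set which of them were called was not tested.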

Other observations

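Further genes of the same pathways and lineages, chosen with results of these data known, were read from the same limma fit, in which 2.46% of all peaks were lower and 0.252% higher (3.92% lower among peaks with an annotated gene). Of all protein-coding genes with a peak, 24.6% had a lower one. Of 22 other Notch pathway genes, 7 carried 16 H3K9me3 peaks, and 5 of these (at 4 of the 7 genes) were lower in KO and 0 higher. They lay at Adam17, the protease that sheds Notch and EGF ligands and can cleave Notch, at Numb, an inhibitor of Notch (2 peaks), at Rbpj, the DNA-binding partner of the Notch intracellular domain, and at Maml3, a co-activator. The Adam17 peak (chr12:21351301-21353400) held log2 values of 6.37, 6.35 and 6.50 in WT and 4.28, 4.42 and 4.77 in KO (difference -1.92, SE 0.19, limma adjusted p = 2.84e-10). At Numb the larger difference was -1.57 (SE 0.18, limma adjusted p = 3.73e-08), with 6.16, 6.18 and 6.39 in WT and 4.89, 4.54 and 4.61 in KO. A second Numb peak differed by -0.69, Rbpj by -0.91 and Maml3 by -0.68. The median over the 16 peaks was -0.48.

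Of 43 other Wnt pathway genes, 7 carried 52 peaks with a median of 0.03, and 1 was lower (1.92%, near the 2.46% of all peaks), at Gsk3b, a kinase of the complex that degrades beta-catenin (difference -0.64, limma adjusted p = 0.0383). Among 34 other enterocyte genes, 2 of 7 peaks were lower, both near Slc15a1, a peptide transporter, with differences of -0.96 and -0.83, so the count rests on 1 of the 5 genes with a peak. Among 31 other secretory and enteroendocrine genes, 1 of 5 peaks was lower, at the goblet cell gene Fcgbp (difference -1.35, limma adjusted p = 1.81e-07), and 1 was higher, near Foxa1, a transcription factor of secretory cells. The Foxa1 peak held 5.96, 5.26 and 5.21 in WT and 6.28, 6.56 and 6.12 in KO (difference 0.84, SE 0.18, limma adjusted p = 0.00143). Of the peaks of 39 other Paneth and antimicrobial genes, 0 of 13 were called by limma, and of those of 16 other tuft cell genes, 0 of 7. Their medians were 0.11 and -0.44, against -0.52 for the member Paneth and antimicrobial list and -0.14 for the member tuft list. Among markers of non-epithelial cells, 1 of 63 peaks was lower (1.59%, also near that share), at the endothelial gene Pecam1 (difference -0.71, limma adjusted p = 0.020), and the median was 0.05.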
